A study of Mus musculus with 26 samples.

Results

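The genes described here are 9 complement components and receptors, of 39017 genes listed in each of 2 deposited count tables, 1 of adipocytes and 1 of stromal vascular cells (SVCs) of mouse epididymal fat. They were chosen by symbol: the 3 chains of C1q (C1qa, C1qb and C1qc), the components C2, C3, C4b and factor B (Cfb), and the anaphylatoxin receptors C3ar1 and C5ar1. All 9 were found in both tables and all 9 passed the filter on low counts in both fractions, so none was lost before testing.

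Male C57BL/6J mice, 9 to 10 weeks old when feeding began, whose labels name no engineered allele, were divided among 3 diets. Lean mice (LFD) ate a diet with 10% fat for 12 weeks, obese mice (HFD) ate a diet with 60% fat for 12 weeks, and formerly obese mice (SW) ate the 60% fat diet for 9 weeks and then the 10% fat diet for 3 weeks. Epididymal fat was digested with collagenase, which frees the cells from the tissue, and centrifugation parted the floating adipocytes from the pelleted SVCs, whose red blood cells were lysed. RNA of the 2 fractions was sequenced, and 15 libraries could be placed: 3 LFD, 3 HFD and 3 SW libraries of adipocytes, and 1 LFD, 2 HFD and 3 SW libraries of SVCs. The labels do not say that the libraries of a group came from separate animals, so p-values measure the spread between these libraries only. The libraries of a group are called A, B and C in the order in which their values are given.

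Complement is a cascade of plasma proteins that tags cells, debris and microbes. In the classical pathway, C1q binds a surface and switches on the proteases C1r and C1s, which cleave C4 and C2 into the enzyme that splits C3. In the alternative pathway, factor B joins fragments of C3, is cleaved by factor D (adipsin, an abundant product of adipocytes) and forms another enzyme that splits C3. The small fragments released from C3 and C5 act on the receptors C3aR and C5aR, which are found mainly on myeloid cells. Macrophages are the main source of C1q, while C3, C4 and factor B are made in liver and in many other cells, fat cells and fibroblasts among them.

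The C1q genes lie side by side on mouse chromosome 4, with 0 coding genes between C1qb and C1qc and 0 between C1qc and C1qa. C4b, Cfb and C2 lie near each other on chromosome 17, with 5 coding genes between C4b and Cfb, and Cfb and C2 are neighbours joined by the read-through gene Gm20547, which overlaps both on the same strand. C3 is also on chromosome 17 but 374 coding genes from C2. Of the members, 5 of 9 had a promoter window in the RefSeq table used here (GRCm38.p6, not the build of the counts). These windows of 280 bases, 250 before to 30 after the gene start, are printed 5′ to 3′ on the gene's strand. C1qb with C1qc, and C3ar1 with C5ar1, had the highest correlations among the members over the adipocyte libraries. The ratio within each pair was nevertheless higher in HFD and in SW than in LFD adipocytes without overlap (exact permutation p = 0.1 each). Between SW and HFD adipocytes both ratios overlapped. Capitals mark matches to the motifs searched: GGAAGT (the ETS core, either strand, so that ACTTCC is its reverse complement), TGANTCA (AP-1, either strand), TTGCNNAA (C/EBP, either strand) and TATAAA (the TATA box, gene strand only).
C1qb (chr4:136886171-136886450, minus strand): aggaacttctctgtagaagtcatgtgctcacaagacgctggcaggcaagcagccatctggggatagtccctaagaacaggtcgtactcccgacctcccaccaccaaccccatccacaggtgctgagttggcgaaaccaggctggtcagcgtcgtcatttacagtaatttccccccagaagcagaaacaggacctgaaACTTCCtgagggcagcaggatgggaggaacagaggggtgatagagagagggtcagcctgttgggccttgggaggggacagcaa
C1qc (chr4:136892885-136893164, minus strand): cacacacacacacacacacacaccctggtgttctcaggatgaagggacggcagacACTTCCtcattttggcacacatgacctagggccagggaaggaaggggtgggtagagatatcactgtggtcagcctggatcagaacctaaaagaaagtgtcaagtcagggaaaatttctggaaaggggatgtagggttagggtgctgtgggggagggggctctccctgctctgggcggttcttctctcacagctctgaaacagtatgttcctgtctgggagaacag
C3 (chr17:57228107-57228386, minus strand): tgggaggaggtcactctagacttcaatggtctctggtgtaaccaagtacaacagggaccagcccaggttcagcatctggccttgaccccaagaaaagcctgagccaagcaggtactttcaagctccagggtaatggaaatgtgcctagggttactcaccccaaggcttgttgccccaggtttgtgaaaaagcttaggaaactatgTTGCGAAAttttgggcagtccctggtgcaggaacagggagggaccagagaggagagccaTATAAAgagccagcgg
C3ar1 (chr6:122856128-122856407, minus strand): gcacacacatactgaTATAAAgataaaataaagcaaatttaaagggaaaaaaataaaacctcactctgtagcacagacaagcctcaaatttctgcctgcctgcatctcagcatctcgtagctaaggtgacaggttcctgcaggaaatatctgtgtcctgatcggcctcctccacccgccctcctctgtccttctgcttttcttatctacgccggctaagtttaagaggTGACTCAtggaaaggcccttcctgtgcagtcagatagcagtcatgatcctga
C5ar1 (chr7:16259309-16259588, minus strand): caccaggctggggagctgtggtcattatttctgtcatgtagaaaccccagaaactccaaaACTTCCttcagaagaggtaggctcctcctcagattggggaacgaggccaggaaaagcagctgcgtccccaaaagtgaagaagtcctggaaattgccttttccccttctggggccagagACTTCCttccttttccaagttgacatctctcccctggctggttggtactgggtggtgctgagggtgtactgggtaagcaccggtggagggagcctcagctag

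The ETS core GGAAGT was present in the windows of C1qb (1 match, at -53), C1qc (1 match, at -195) and C5ar1 (2 matches, at -190 and -72), counted from the gene start, and in 22.3% of the 32851 windows of the same length in the table. The C3 window held TTGCNNAA at -45, found in 10.4% of all windows, and TATAAA at 14 bases after the annotated start, found in 8.02%. The C3ar1 window held TGANTCA at -22, found in 7.46% of all windows, and TATAAA at -235. No 2 matches overlapped. Such matches describe the letters of these windows and are not evidence of binding.

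Totals per library ran from 5781902 to 23725647 counts, and the 3 smallest libraries were LFD ones. Levels are given as CPM, the counts of a gene per 1000000 counts of the library, scaled with TMM factors within a fraction. Summed CPM of 8 adipocyte markers was 11000 to 36800 in the adipocyte libraries and 442 to 1210 in the SVC libraries. The adipocyte libraries also held macrophage transcripts: the sum of 10 macrophage markers was 593 to 1080 CPM in LFD, 8220 to 9600 in HFD and 5990 to 8770 in SW adipocytes, and no marker was at 0 in any library. In bulk samples such as these, fewer cells of a type and less RNA per cell cannot be told apart. Among the SVCs, HFD library B stood apart, with 33.5% of its counts from mitochondrial genes (4.36% to 13.8% in the other libraries) and 16828 counts of albumin (68 to 227 in the other SVC libraries). HFD library A also differed from the other SVC libraries, with 0.287% of its counts from hemoglobin genes (2.76% to 5.15% in the others) and a summed level of mesothelial markers of 25 CPM (118 to 842 in the others). The tests of the members that use these libraries are also given without each of them.

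In adipocytes of obese mice, the C1q chains and both anaphylatoxin receptors were several times as high as in lean mice, C3 and C4b rose less, C2 fell and Cfb did not pass the test. Of the 9 members, 7 rose and 1 fell (adjusted p under 0.05, edgeR), where 51.5% of the 14461 genes tested were called, 26.5% as higher and 25% as lower, and 62.7% had groups without overlap. The median log2 fold change was 1.85 over the members and -0.0255 over all genes tested.

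**Figure D1:**
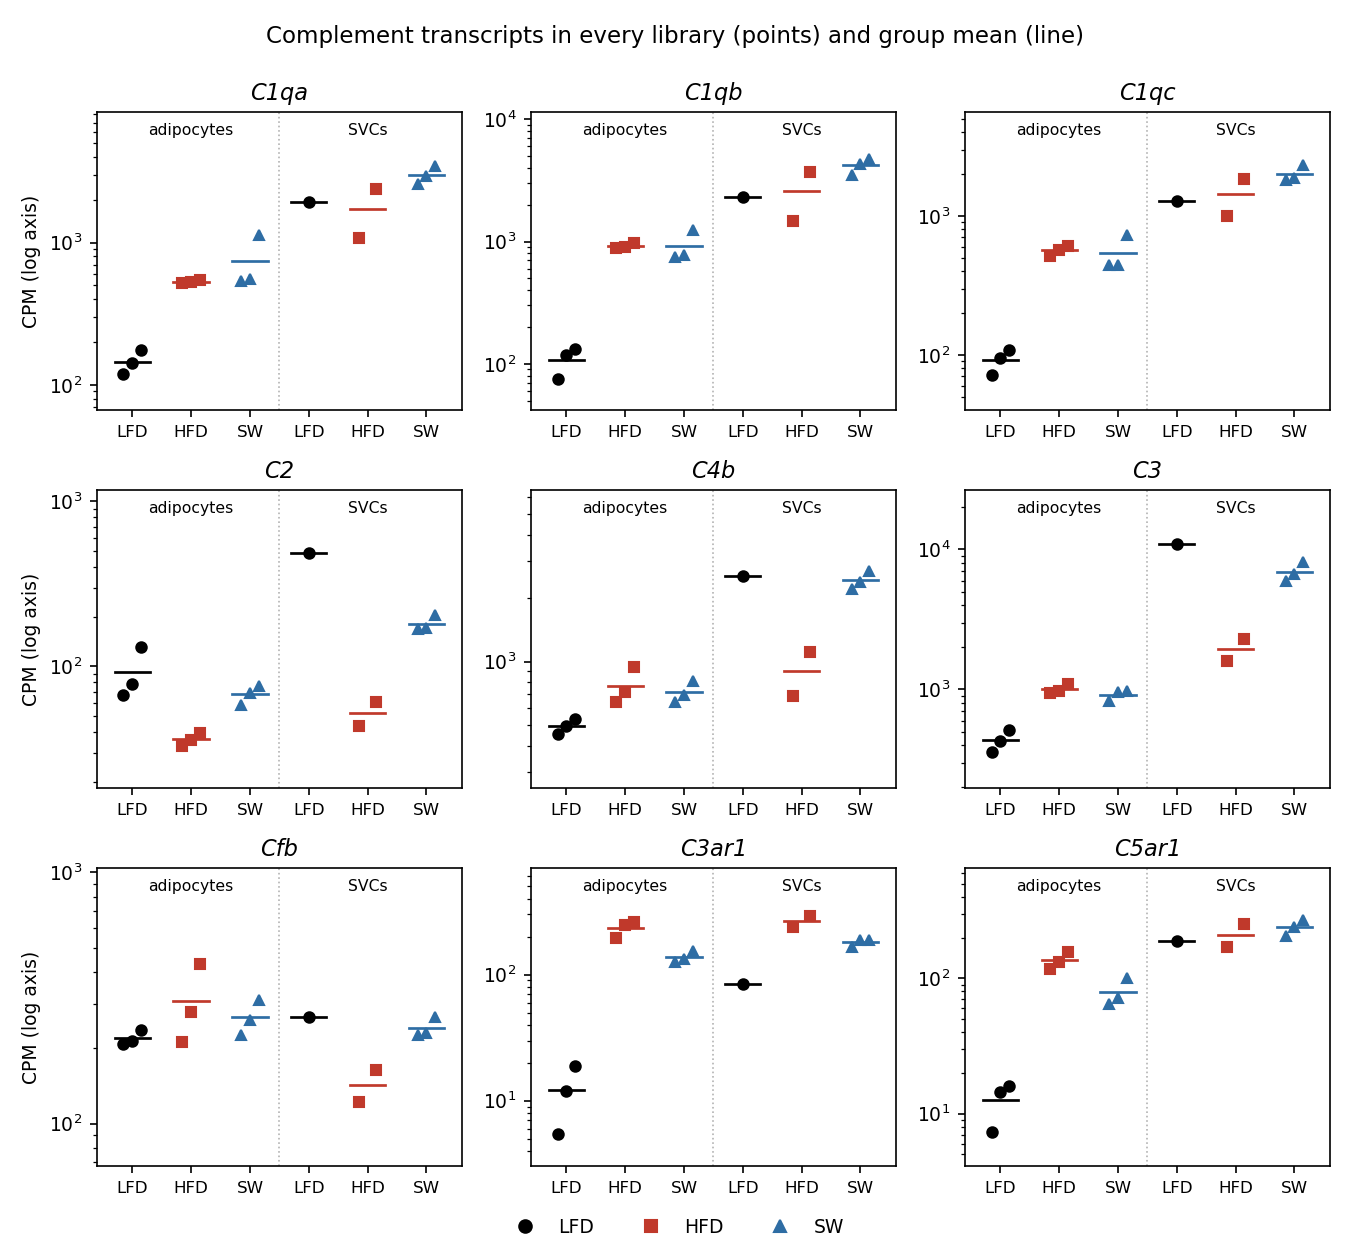
Level of each of the 9 members in every library, as CPM on a log axis scaled over both fractions together, by fraction and diet; each point is 1 library. In adipocytes the LFD libraries sit below the HFD and SW libraries for the C1q chains, C3, C3ar1 and C5ar1, and above the HFD libraries for C2.

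The receptors had the largest differences between HFD and LFD among the members. C3ar1, the receptor of the C3a fragment, stood at 21.3, 13.5 and 6.07 CPM in the LFD libraries, at 278.7, 212.8 and 286.2 in HFD and at 172.8, 149.2 and 139.9 in SW. The lowest HFD library was thus far above the highest LFD library, and the SW libraries lay between the other groups. The rise from LFD to HFD was 19.2-fold (log2 4.27 ± 0.356 SE, n = 3 and 3, adjusted p = 1.63e-05 by edgeR). C5ar1, the receptor of C5a, read 16.3, 17.95 and 8.18 CPM in LFD, 148.4, 130.0 and 174.3 in HFD and 113.3, 79.5 and 72.3 in SW. Again no library of LFD reached those of the other diets, and the rise to HFD was 10.5-fold (log2 3.39 ± 0.285, adjusted p = 1.69e-05 by edgeR).

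C1q is assembled from A, B and C chains, the products of C1qa, C1qb and C1qc. C1qb was at 133.7, 146.7 and 83.6 CPM in LFD adipocytes, 998.9, 1001 and 1080 in HFD and 1384, 862.7 and 829.0 in SW. C1qc was at 108.0, 122.1 and 80.0 CPM in LFD, 632.6, 567.2 and 675.1 in HFD and 814.0, 499.2 and 490.3 in SW. C1qa was at 161.3, 195.4 and 132.6 CPM in LFD, 588.0, 570.2 and 604.0 in HFD and 1272, 598.8 and 621.3 in SW. For all 3 chains the LFD libraries lay below every HFD and SW library, and in SW library A was the highest. The rise to HFD was 8.45-fold for C1qb (log2 3.08 ± 0.272, adjusted p = 2.16e-05 by edgeR). It was 6.04-fold for C1qc (log2 2.59 ± 0.243, adjusted p = 2.96e-05) and 3.60-fold for C1qa (log2 1.85 ± 0.288, adjusted p = 0.000584).

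C3 is the central component, cleaved by both pathways. It was at 484.9, 579.8 and 395.0 CPM in LFD, 1233, 1065 and 1045 in HFD and 1091, 1073 and 916.4 in SW adipocytes. HFD and SW libraries shared 1 range above the LFD libraries, and the rise to HFD was 2.29-fold (log2 1.20 ± 0.181, adjusted p = 0.000482 by edgeR). C4b encodes C4 of the classical pathway and was at 514.7, 600.7 and 546.7 CPM in LFD, 717.5, 1037 and 795.3 in HFD and 783.5, 720.5 and 905.0 in SW. The LFD libraries lay below every HFD and SW library, while HFD and SW overlapped, and the rise to HFD was 1.53-fold (log2 0.62 ± 0.179, adjusted p = 0.0156). C4a, a near-identical gene whose reads the counting could have split with C4b, was at most 3.08 CPM in any adipocyte library, and adding its counts to those of C4b changed no call.

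C2, the protease partner of C4, moved the other way. It was at 76.8, 87.4 and 144.8 CPM in LFD, 40.1, 43.5 and 36.5 in HFD and 65.6, 84.6 and 77.2 in SW adipocytes. HFD libraries were the lowest, and SW overlapped LFD. The fall from LFD to HFD was 1.36 ± 0.218 on the log2 scale (adjusted p = 0.000679 by edgeR), so that LFD was 2.57-fold higher. Factor B, the corresponding protease of the alternative pathway, was at 267.4, 239.7 and 230.3 CPM in LFD, 236.2, 475.6 and 306.9 in HFD and 290.3, 253.3 and 344.9 in SW. All 3 groups of Cfb overlapped, and its log2 difference between HFD and LFD was 0.47 ± 0.236 (adjusted p = 0.121 by edgeR). Without HFD library A Cfb passed the test, at an adjusted p of 0.0277. The read-through gene Gm20547 was listed at 0 in the 3 LFD libraries and at 180, 360 and 22 counts in HFD, and its counts could be split with C2 and Cfb. With these counts added to C2, it still fell from LFD to HFD (log2 -1.04, adjusted p = 0.00604).

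**Figure D2:**
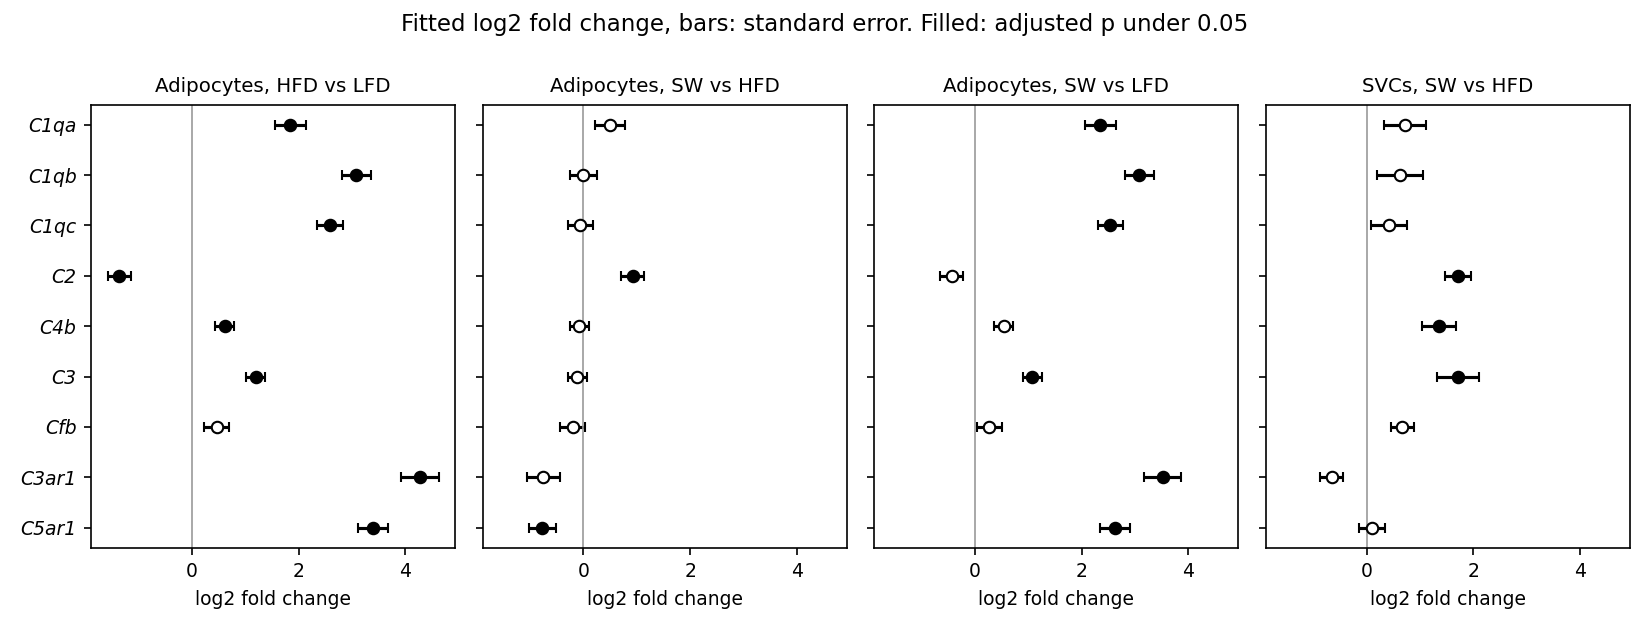
Log2 fold change of the 9 members with its standard error in adipocytes for the 3 pairs of diets and in SVCs for SW against HFD; filled points passed an adjusted p of 0.05 in edgeR. C3ar1 has the largest difference between HFD and LFD at 4.27, and C2 is the member below 0 that passed the test there.

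After the switch to the low fat diet, most members stayed close to their level in obese mice. Between SW and HFD adipocytes, C2 rose and C5ar1 fell, and the other 7 members did not pass the test, where 31.4% of all genes tested were called, 15.6% as higher and 15.9% as lower, and 48.6% had groups without overlap. C2 was 1.89-fold higher in SW (log2 0.92 ± 0.216, adjusted p = 0.0136 by edgeR), with every SW library above every HFD library. C5ar1 fell by 0.77 ± 0.254 on the log2 scale (adjusted p = 0.0419), again without overlap. Neither call was firm: C2 did not pass without HFD library C or with the counts of Gm20547 added (log2 0.64, adjusted p = 0.072), and C5ar1 did not pass without HFD library A or C or SW library B or C. C3ar1 differed by -0.75 ± 0.304 with no overlap between the groups, and missed the threshold at an adjusted p of 0.0817. The remaining log2 differences were 0.50 for C1qa, -0.0026 for C1qb, -0.056 for C1qc, -0.12 for C3, -0.08 for C4b and -0.20 for Cfb, with adjusted p between 0.19 and 0.995.

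Against lean mice, the adipocytes of formerly obese mice were higher for 6 of the 9 members and lower for 0 (0 also by DESeq2, by limma-voom and at an unadjusted p under 0.05), where 17.1% of all genes tested were called, 10.9% as higher and 6.18% as lower, and 36.7% had groups without overlap. This comparison shares the LFD libraries with that of HFD against LFD and the SW libraries with that of SW against HFD. C3ar1 was 11.4-fold, C1qb 8.44-fold, C5ar1 6.15-fold, C1qc 5.81-fold, C1qa 5.09-fold and C3 2.11-fold higher, with adjusted p between 7.06e-05 and 0.00268 by edgeR. C4b was higher in each SW than in each LFD library but missed the threshold (log2 0.54, adjusted p = 0.0672), C2 overlapped (-0.44, adjusted p = 0.192), and so did Cfb (0.27, adjusted p = 0.476). With DESeq2 C4b passed (adjusted p = 0.00722), and likewise with limma-voom (0.042). The share of the log2 distance from the obese to the lean level that was covered in SW was 0.677 for C2, 0.228 for C5ar1, 0.176 for C3ar1, 0.133 for C4b and 0.0989 for C3, where 1 would be a full return to the lean level. For C1qb and C1qc it was 0.000837 and 0.0217, and for C1qa it was -0.27, since C1qa was on average higher in SW than in HFD. These shares of the C1q chains rested on SW library A, the highest for each chain (1272 CPM for C1qa). SW libraries B and C lay below every HFD library for C1qb and C1qc. For C1qa they were near HFD, at 598.8 and 621.3 against 570.2 to 604.0 CPM. In the contrast of HFD and SW together with LFD, which called 40.1% of all genes, 20.7% as higher and 19.4% as lower, 7 members were higher and 1 lower, C2 by -0.90 (adjusted p = 0.00331 by edgeR).

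The C1q chains did not rise by the same factor, which was examined after their levels had been seen. The ratio of C1qb to C1qa counts was 0.829, 0.751 and 0.630 in LFD adipocytes, 1.70, 1.76 and 1.79 in HFD and 1.09, 1.44 and 1.33 in SW. The 3 diets did not overlap, with LFD lowest and HFD highest, and each pair of diets reached p = 0.1 in an exact permutation test (two-sided), the smallest value that 3 against 3 libraries allow. The ratio of C1qc to C1qa ran from 0.604 to 0.670 in LFD, from 0.995 to 1.12 in HFD and from 0.640 to 0.834 in SW, so that SW overlapped LFD and lay below HFD. The log2 ratio of C1qb to C1qc was 0.51 higher in HFD and 0.56 higher in SW than in LFD adipocytes. Neither pair of groups overlapped (exact permutation p = 0.1 each), while SW and HFD did. In SVCs the ratio of C1qb to C1qa was 1.20 in the LFD library, 1.37 and 1.57 in HFD and 1.38, 1.36 and 1.47 in SW, where HFD and SW overlapped (exact permutation p = 0.6). The ratio of C1qc to C1qa was 0.656 in the LFD library of SVCs, 0.928 and 0.779 in HFD and 0.671, 0.708 and 0.643 in SW, so that SW lay below HFD without overlap (log2 -0.34, exact permutation p = 0.1, the smallest value that 3 against 2 libraries allow). Against HFD library A alone this difference was -0.46 and against library B alone -0.21. The receptors also parted: the log2 ratio of C3ar1 to C5ar1 was 0.93 higher in HFD than in LFD adipocytes (exact permutation p = 0.1). In SVCs the log2 ratio of C3ar1 to C5ar1 differed by -0.74 between SW and HFD (exact permutation p = 0.1), by -1.16 against HFD library A alone and by -0.33 against HFD library B alone, so that its size rested on library A.

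**Figure D3:**
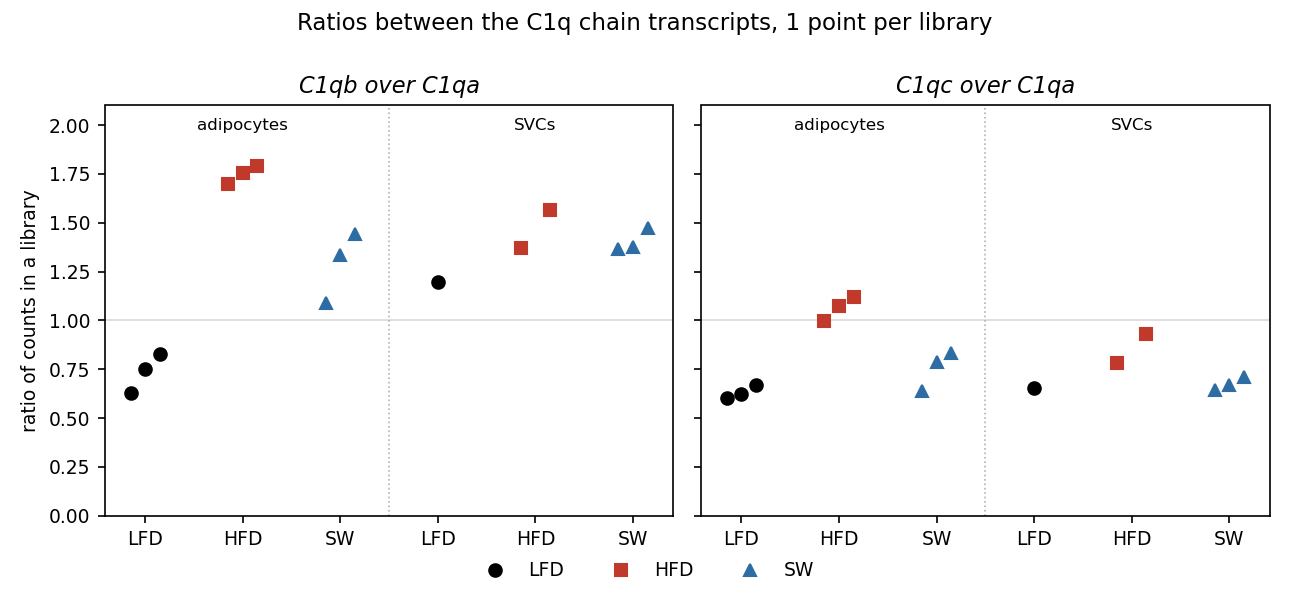
Ratio of C1qb to C1qa and of C1qc to C1qa counts in each library, by fraction and diet. In adipocytes the ratio of C1qb to C1qa lies between 0.630 and 0.829 in LFD and between 1.70 and 1.79 in HFD, and in SVCs it lies between 1.20 and 1.57.

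Levels of different genes were compared per kilobase of the longest transcript. In LFD adipocytes the members from C1qa (156.8 CPM per kb) through C1qb (111.5), C4b (103.0), C3 (94.7) and Cfb (89.4) to C1qc (85.9) followed each other with overlapping libraries. Below them lay C2 at 39.0, C5ar1 at 5.57 and C3ar1 at 3.16 CPM per kb. In HFD adipocytes C1qb led with 943.8 CPM per kb and was apart from C1qa (564.8) and C1qc (519.5), which overlapped. C3 (217.0), C4b (158.0) and Cfb (123.5) followed, then C3ar1 (60.2) and C5ar1 (59.4), and C2 was last with 15.2. The order of the means was the same in SW adipocytes, from C1qb at 942.3 to C2 at 28.7 CPM per kb.

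The macrophage markers rose from LFD to HFD, as 7 of the 9 members did, and 5 of the 10 were lower in SW than in HFD, as C5ar1 was among the members. Between HFD and LFD adipocytes, 10 of 10 macrophage markers were higher, with a median log2 fold change of 3.22. Between SW and HFD 0 were higher (0 also at an unadjusted p under 0.05) and 5 lower, and between SW and LFD 8 were higher. The median log2 fold change between SW and HFD was -0.707 over these markers and -0.0823 over the members. Markers and members were not tested against each other. Markers of adipocytes moved the other way (0 of 8 higher and 6 lower in HFD against LFD), and those of fibroblasts and progenitors rose in 4 of 7. Their part in the changes of the members was not tested. Lyz2 and Lgals3 made up most of the summed macrophage level, from 73.3% to 83.5% over the adipocyte libraries.

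Each member was also given as a percentage of the summed macrophage marker CPM. Since that sum was several times as high in HFD and SW as in LFD adipocytes, a gene whose CPM did not change is lower relative to it there. Of all 14461 genes tested, 96.6% had groups without overlap between HFD and LFD on this scale, 95.8% as lower and 0.809% as higher, so a lower value is no result about a member. C3ar1 was 1.97%, 1.46% and 1.02% of that sum in LFD adipocytes and 3.03%, 2.59% and 2.98% in HFD. Among the members, C3ar1 alone was higher relative to the marker sum in HFD without overlap, by 1.00 on the log2 scale (exact permutation p = 0.1, the smallest that 3 against 3 libraries allow). Single markers rose by unlike amounts: Adgre1 was at 25.45 to 35.7 CPM in LFD and 564 to 804 in HFD, Cd163 at 14.4 to 26.2 and 30.6 to 36.7. The value of C3ar1 is therefore relative to a sum made up mostly of Lyz2 and Lgals3, not to each marker. C5ar1 was at 1.51%, 1.94% and 1.38% in LFD and 1.61%, 1.58% and 1.82% in HFD, with overlapping groups (log2 0.064, exact permutation p = 0.8). The other 7 members were lower relative to the markers in HFD than in LFD, each without overlap. C1qb differed least, from 12.4%, 15.9% and 14.1% in LFD to 10.9%, 12.2% and 11.2% in HFD (log2 -0.30). C1qc differed by -0.81, C1qa by -1.55, C3 by -2.21, C4b by -2.82, Cfb by -3.01 and C2 by -4.73 on the log2 scale.

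Between SW and HFD adipocytes 41.9% of all genes tested had groups without overlap on this scale, 35% as higher and 6.89% as lower. The C1q chains and C2 were higher in SW relative to the macrophage markers, by 0.78 (C1qa), 0.33 (C1qb), 0.28 (C1qc) and 1.29 (C2) on the log2 scale, each without overlap. The CPM of the C1q chains did not pass the test between SW and HFD, while the marker sum was 8220 to 9600 in HFD and 5990 to 8770 in SW. A higher value on this scale is thus no result about these chains. C3ar1 and C5ar1 were lower, by -0.37 and -0.42, at 1.97% to 2.33% and 1.21% to 1.29% of the sum in SW. C3, C4b and Cfb overlapped. The direction of the receptors depended on how the markers were summarised: with the median of the markers in place of their sum, C3ar1 and C5ar1 were 0.20 and 0.15 higher in SW than in HFD. Between SW and LFD the groups of 8 members did not overlap, and without Lgals3 those of 5, where 96.3% of all genes tested had groups without overlap with all 10 markers. In SVCs that share was 42.6% between SW and HFD.

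**Figure D4:**
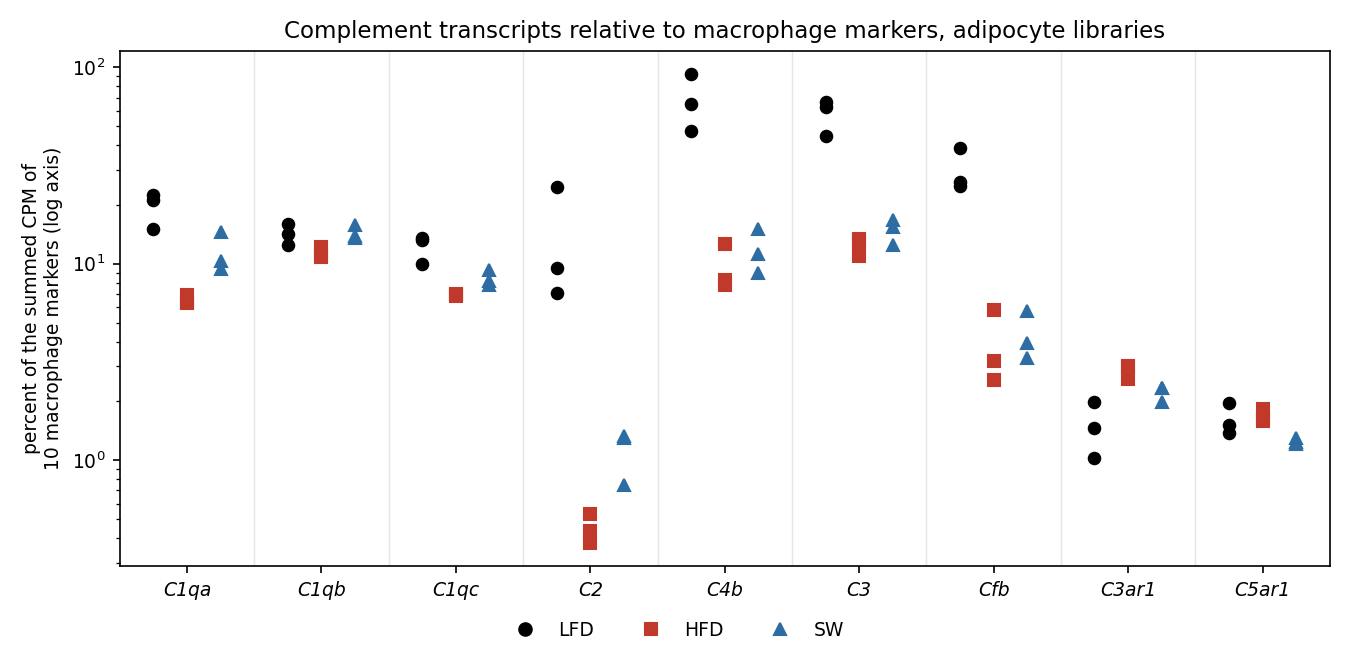
Each member in the 9 adipocyte libraries as a percentage of the summed CPM of 10 macrophage markers, on a log axis, by diet. C3ar1 lies higher in HFD (2.59% to 3.03%) than in LFD (1.02% to 1.97%), C5ar1 overlaps, and the other 7 members lie lower in HFD.

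In SVCs, the single LFD library allows no test against lean mice, and its values are given as they stand. C3 was at 8868 CPM in that library, at 2174 and 1348 in the HFD libraries and at 5074, 6660 and 5572 in SW. C2 was at 389.9 CPM in LFD, 41.1 and 51.3 in HFD and 145.0, 137.5 and 171.4 in SW. C4b was at 2056 CPM in LFD, 647.0 and 936.6 in HFD and 2300, 1812 and 2002 in SW. For these 3 genes the HFD libraries were the lowest, and for C4b the LFD library lay within the SW range. The LFD level was 5.04 times the HFD mean for C3, 8.44 times for C2 and 2.60 times for C4b, with no replicate check. Against HFD library A alone it was 4.08 times for C3, 9.48 times for C2 and 3.18 times for C4b, and against library B alone 6.58, 7.61 and 2.20 times. Macrophage markers summed to 1960 CPM in the LFD library, 8830 to 16000 in HFD and 8660 to 13800 in SW, markers of fibroblasts and progenitors to 13900, 6250 to 10000 and 7720 to 10000, and those of mesothelium to 842, 25 to 126 and 118 to 153; their part in these levels was not tested.

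C1q and C5ar1 showed no such pattern in SVCs. C1qb was at 1863 CPM in LFD, 1391 and 3147 in HFD and 4039, 2872 and 3619 in SW. C1qa was at 1559 CPM in LFD, 1014 and 2010 in HFD and 2932, 2106 and 2459 in SW, and C1qc was at 1022, 941.1 and 1566, and 1968, 1491 and 1581 in the same order. The LFD library lay between the HFD libraries for all 3 chains, which differed between each other about as much as the groups. C5ar1 was at 153.5 CPM in LFD, 160.1 and 212.3 in HFD and 202.9, 169.0 and 227.3 in SW. C3ar1 was at 67.4 CPM in LFD, 271.7 and 201.8 in HFD and 140.6, 154.7 and 156.2 in SW, with HFD highest and the LFD library lowest. Cfb was at 213.7 CPM in LFD, 114.7 and 137.9 in HFD and 191.8, 188.1 and 223.1 in SW. As for C2, C3 and C4b, its HFD libraries were the lowest, and as for C4b, the LFD library lay within the SW range.

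Between SW and HFD SVCs, 3 members rose and 0 fell by edgeR (1, C3ar1, fell by DESeq2 and at an unadjusted p under 0.05, and 0 by limma-voom), where 17.5% of the 16319 genes tested were called, 5.71% as higher and 11.7% as lower, and 58.6% had groups without overlap. C2 was higher by 1.71 ± 0.236 on the log2 scale (n = 3 and 2, adjusted p = 0.0362 by edgeR), C3 by 1.71 ± 0.388 (0.0407) and C4b by 1.36 ± 0.318 (0.0419). Without HFD library B the differences of these genes were 1.88, 1.41 and 1.66, and C1qa (1.31), C1qb (1.34) and Cfb (0.81) passed as higher and C3ar1 (-0.85) as lower. Without HFD library A they were 1.64, 2.17 and 1.19, and C2 alone passed. Without SW library A, B or C, 0 members passed by edgeR, with C2 between 1.61 and 1.74 and adjusted p between 0.0505 and 0.155. Without SW library A or B, 0 of all genes tested passed. In the fit of all libraries the members that missed the threshold differed by 0.72 (C1qa), 0.63 (C1qb), 0.42 (C1qc), 0.67 (Cfb), -0.65 (C3ar1) and 0.10 (C5ar1).

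SVCs and adipocytes of the same diet were compared in a joint fit of all 15 libraries, except in LFD, where SVCs had 1 library. In SW mice 7 of 9 members were higher in SVCs and 0 lower, where 68.4% of the 17441 genes tested were called, 35.6% as higher and 32.8% as lower. C3 was 7.54-fold (log2 2.91, adjusted p = 4.92e-07 by edgeR), C1qb 4.58-fold, C1qa 4.02-fold, C1qc 3.74-fold, C4b 3.39-fold, C5ar1 3.02-fold and C2 2.67-fold higher in SVCs. Cfb (-0.14, adjusted p = 0.611) and C3ar1 (0.39, adjusted p = 0.245) did not pass. In HFD mice, where 29.1% of genes were called, 16.2% as higher and 12.9% as lower, C1qa (1.71), C1qb (1.49), C1qc (1.34) and C3 (0.96) were higher in SVCs and Cfb was lower (-1.11, adjusted p = 0.00923). Without SVC HFD library B the C1q differences shrank to 1.02, 0.67 and 0.82 and did not pass, leaving C3 higher and Cfb lower. Without SVC HFD library A the C1q chains (2.17, 2.01 and 1.72) and C5ar1 (0.88) were higher and Cfb lower (-0.91), while C3 missed the threshold (0.67, adjusted p = 0.0533 by edgeR). Of the 10 macrophage markers 0 passed between the fractions in HFD mice by edgeR (4 were higher in SVCs at an unadjusted p under 0.05), while in SW mice 6 were higher and 2 lower in SVCs.

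C3 and C4b responded to the diet switch differently in the 2 fractions. For C3 it was 1.71 in SVCs and -0.12 in adipocytes, and in the joint fit the difference was 1.96 ± 0.341 on the log2 scale (adjusted p = 0.00226 by edgeR). For C4b it was 1.36 and -0.08, with a difference of 1.54 ± 0.334 (adjusted p = 0.00568). Among all genes tested 27.1% were called, 11.4% in that direction and 15.7% in the other. Over 21 alternatives the difference ran from 1.62 to 2.25 for C3 and from 1.23 to 1.82 for C4b. Each alternative kept SVC HFD library A, B or both, and each of these differed from the other SVC libraries. These settings therefore do not check the difference without such libraries. For C2 (0.89, adjusted p = 0.0719), Cfb (0.97, 0.0579) and C5ar1 (0.97, 0.088) the difference did not pass.

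Other genes of the cascade were taken from a list of 44, all in the tables, of which 28 passed the filter in adipocytes. Between HFD and LFD adipocytes 15 rose, 9 fell and 4 did not pass, with a median log2 fold change of 0.70. Among all genes tested 26.5% were called as higher and 25% as lower. Of the genes that start the cascade, 4 of 5 tested rose, among them C1ra (1.11, adjusted p = 0.000268 by edgeR) and C1s1 (0.47, adjusted p = 0.0331), the proteases that partner C1q. Of 6 other receptors tested 5 rose and 0 fell: the integrin chains of complement receptors 3 and 4, Itgax (4.37), Itgb2 (4.35) and Itgam (4.10), the second C5a receptor C5ar2 (3.06) and the macrophage receptor Vsig4 (2.72). Among regulators 3 rose and 5 fell of 10, with the C1 inhibitor Serping1 at 0.93 and clusterin (Clu) at -1.62. Of the 4 terminal components tested, 2 rose and 2 fell, with C6 at -1.86. Hc, the gene of C5, was at 2.29 (adjusted p = 0.0195 by edgeR). It had few counts, 4, 7 and 0 in LFD and 33, 17 and 41 in HFD. C7 also rose, from 23.0, 21.9 and 9.23 CPM in LFD to 111.4, 45.6 and 67.8 in HFD. In SW adipocytes C7 stood at 7.04, 25.7 and 29.9 CPM.

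Adipsin (Cfd), which cleaves factor B, had the largest fall. It was at 2716, 5995 and 10850 CPM in LFD, 276.7, 439.4 and 198.7 in HFD and 2154, 2916 and 1975 in SW adipocytes. HFD lay far below the other diets, and the fall was 4.42 ± 0.518 on the log2 scale (adjusted p = 0.000106 by edgeR). From HFD to SW Cfd rose by 2.94 (adjusted p = 0.00518), and SW did not pass against LFD (-1.47, adjusted p = 0.0526). Properdin (Cfp), which stabilises the alternative enzyme, rose by 1.34 in HFD, and C4a did not pass (0.30). Between SW and HFD adipocytes 5 of the 28 genes rose and 6 fell, Itgam (-1.59), Itgb2 (-0.94) and Vsig4 (-0.85) among those that fell. These counts were near the share of all genes tested, 15.6% as higher and 15.9% as lower. Between SW and LFD 11 were higher and 2 lower, where 10.9% of all genes tested were called as higher and 6.18% as lower. In SVCs 39 of the 44 were tested between SW and HFD, where 5.71% of all genes tested were called as higher and 11.7% as lower. Of the 39, 1 rose (Serping1, 1.57, adjusted p = 0.0381) and 4 fell by edgeR, against 4 and 15 by DESeq2 and 1 and 1 by limma-voom. These counts rested on single libraries: without HFD library B 7 rose and 3 fell, without HFD library A 2 rose and 6 fell, and without SW library A, B or C 0 rose and 0 fell by edgeR.

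**Figure D5:**
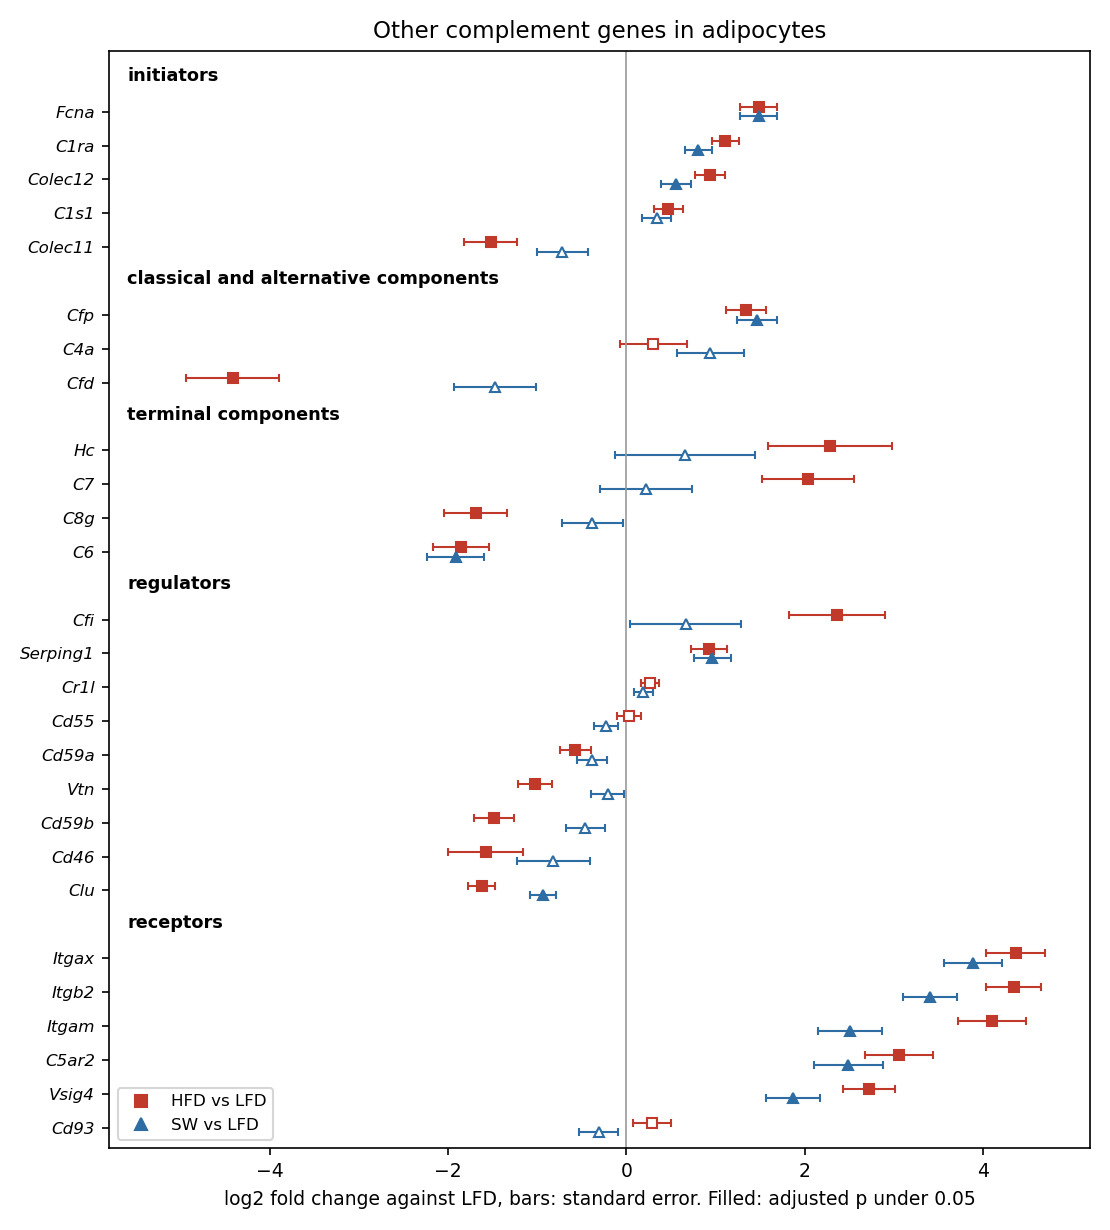
Log2 fold change of other complement genes in adipocytes, HFD against LFD and SW against LFD, grouped by role; filled points passed an adjusted p of 0.05 in edgeR. Itgax, Itgb2 and Itgam lie above 4 in HFD, and Cfd lies lowest at -4.42.

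Across the 9 adipocyte libraries, which span the diets, C1qb and C1qc had the highest Pearson correlation of log2 CPM among the members (0.998), followed by C3ar1 and C5ar1 (0.99). C4b and Cfb correlated at 0.821, and Cfb correlated with the members other than C4b at 0.498 or less. C2 was negative with each of the other members, from -0.471 with Cfb to -0.851 with C5ar1. Among all genes tested other than members, those most like C1qa were Cyba (0.998), Fcer1g (0.997) and Dnase2a (0.997), and those most like C3ar1 were Adam8, Cd84 and Ms4a6d (0.999 each). The genes most like C3 were Rhoh (0.994), Csf3r and Slc11a1, those most like C4b were Eif2b2 (0.962), Nop2 and Psmd6, and those most like Cfb were Gys2 (0.932), Gm7694 and Emc4. These values describe likeness over 9 libraries that share their diets, scaling and depth.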

How the data were processed

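RNA of adipocytes and SVCs was sequenced from TruSeq libraries. The deposited values are expected counts, estimated by the authors with RSEM after alignment with Bowtie2 and written as whole numbers without normalization, on build mm9 per the submitters' processing notes. Tool versions are not given in the sources used here. Of 26 sample records, some are repeat runs of a library, and the columns carry a diet group and a number that no label holds, so each of 15 columns stands for 1 library of its group. A further 3 value columns match no group's labels and were not used. Titles and treatment labels of the SW mice differ, and the treatment labels were followed.

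With R 4.3.3 and edgeR 4.0.16, genes passing filterByExpr (minimum count 10) were scaled with TMM factors and tested with a robust quasi-likelihood fit of all diets of a fraction, or of all 15 libraries for comparisons between fractions, with Benjamini-Hochberg adjustment over all genes tested and a threshold of 0.05. The joint fit scales the fractions together, so its values differ slightly from those within a fraction. Ratios were tested with exact two-sided permutation tests over libraries. No 2 libraries of a group agreed within counting noise. The counting is not stated to use strand, so reads of C2 and of the opposite-strand gene Zbtb12 that overlaps it cannot be told apart. Gene lengths, neighbours and overlaps came from GENCODE M21, which is on another build. Alternatives were DESeq2 1.42.0, limma-voom (limma 3.58.1), RLE and upper-quartile factors, 2 other filters on low counts, only the groups compared, each library left out, C4a and C4b summed, and other summaries of the macrophage markers; adding Gm20547 to C2 or Cfb, and setting SVC ratios against each HFD library alone, were chosen after seeing the data. The text names all 9 members, a fixed set of other complement genes (1 of them is not reported here) and the 3 largest rises and falls among the others, and the 3 genes most like each of 5 members. The members and lists were chosen with earlier results of these data known. The statistical scripts were tested on simulated data.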

Additional observations from a re-analysis of the deposited data

Results flagged for a closer look

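C3 and C4b are listed here because their change from HFD to SW differed between SVCs and adipocytes in a test of that difference (edgeR, joint fit of 15 libraries). The difference, SVCs minus adipocytes, was 1.955 on the log2 scale for C3 (adjusted p = 0.00226) and 1.536 for C4b (adjusted p = 0.00568). Among all genes tested 27.1% were called, 11.4% in that direction. For C3 every SW library of SVCs (5074, 6660 and 5572 CPM) was above both HFD libraries (2174 and 1348 CPM), while in adipocytes the SW libraries (916.4 to 1091 CPM) overlapped the HFD libraries (1045 to 1233 CPM). For C4b the SVC libraries were likewise apart and the adipocyte libraries overlapped. Both HFD libraries of SVCs differed from the other SVC libraries, as given above, so the difference could not be checked without them. Within SVCs, neither rise from HFD to SW passed by edgeR when any SW library was left out. Macrophage markers summed to 8830 and 16000 CPM in the HFD and 8660 to 13800 CPM in the SW libraries of SVCs. Markers of fibroblasts and progenitors summed to 6250 and 10000 CPM in HFD and 7720 to 10000 CPM in SW. The part of these cells in the differences was not tested.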

How the results depend on the processing

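The calls in adipocytes against LFD held under most settings. Between HFD and LFD, 7 to 8 members rose and 1 fell without each library in turn, Cfb being the eighth without HFD library A. Between SW and LFD, 6 rose and 0 fell without each library, and 7 rose with DESeq2 and limma-voom. For HFD and SW together against LFD, 6 to 7 rose and 1 fell, C4b not passing without LFD library A or C (adjusted p = 0.058 and 0.0574). Between SW and HFD adipocytes 0 to 1 members rose and 0 to 1 fell without each library. With Gm20547 added to C2, 0 rose, since C2 carries these counts in HFD, and in a fit of only these groups 2 fell, C3ar1 and C5ar1. Over all genes, 2252 were higher and 2294 lower, against 627 and 895 without HFD library C and 1017 and 1282 without HFD library A.

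In SVCs, leaving out a library left 0 to 6 members higher and 0 to 1 lower between SW and HFD. With DESeq2, and when each library had to hold 10 counts or more, 1 member was lower, C3ar1. Over all genes 932 were higher and 1917 lower, against 2473 higher with DESeq2 and 573 and 1146 with limma-voom, and 2772 and 3441 without HFD library B. Where an HFD library was left out, the lone remaining library was assumed to vary like the other groups. Between SVCs and adipocytes of HFD mice, 1 to 4 members were higher and 1 lower without each library, while a fit of only these groups called 2 higher (C1qa and C1qc) and 0 lower, with 940 and 1090 calls over all genes against 2834 and 2244. In SW mice 7 were higher and 0 lower throughout, and the same filter left 3856 of 6202 genes higher. The difference between fractions was called for 2 to 6 members without each library and for 5 with DESeq2, with 0 lower; without SVC HFD library A it was called for 1280 and 1656 genes against 1985 and 2742. The cause of these shifts was not tested.

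Relative to the macrophage markers, 8 to 9 members did not overlap between HFD and LFD adipocytes and 8 between SW and LFD, without each library in turn. With all libraries, 96.6% and 96.3% of all genes tested had groups without overlap there. Between SW and HFD, 6 to 8 members did not overlap in adipocytes and 7 to 8 in SVCs, without each library in turn. Those shares of all genes were 41.9% and 42.6% with all libraries. Without Lgals3, 5 members did not overlap between SW and LFD, a setting for which no share of all genes was computed. With the markers' median in place of their sum, 4 of the differences whose groups did not overlap with the sum changed sign. These were C3ar1 and C5ar1 between SW and HFD (0.199 and 0.154), and C1qc and C5ar1 between SW and LFD (0.197 and 0.372). No paired analysis was possible because the columns carry no replicate number of the labels. Other scaling factors moved the median of all genes by at most 0.0988 on the log2 scale. With 3 libraries a group or fewer, no permutation test could reach 0.05.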
